A study of Mus musculus with 2 samples.

Results

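The cytoplasmic ribosomal protein genes are the genes for the proteins of the cytoplasmic ribosome. They were taken by symbol as all genes named Rpl or Rps followed by a digit, together with Rplp0, Rplp1, Rplp2 and Rpsa, and without pseudogene (-ps) names and the Rps6k kinases. The rule found 86 of the 32285 genes in the tables: 43 of the large subunit, 31 of the small subunit, 3 of the stalk, 8 paralogs and Rps19bp1, which matches by name only and encodes no ribosomal protein. They were followed in PD7 testes of 1 control and 1 *Brca1* vKO mouse, each sequenced as 1 droplet-based scRNA-seq library with no biological replicate. The *Brca1* vKO mouse carried 1 floxed and 1 null allele of *Brca1* (Brca1 f/-) and the Vasa-Cre transgene, which is expressed in germ cells from the gonocyte stage, so that its somatic cells also lacked 1 allele. The control was a littermate whose alleles are not given in the sources used here. More cells were loaded for *Brca1* vKO.

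A ribosome is built from a small subunit, which reads the mRNA, and a large subunit, which joins amino acids, and each subunit holds ribosomal RNA and about equal amounts of each of its proteins. The genes for these proteins are transcribed at high levels in most cells, and their mRNAs carry a 5′ TOP motif through which mTOR and LARP1 control their translation. Several ribosomal proteins have paralogs of restricted expression, among them RPL39L and RPL10L of the male germ line, where the genes Rpl39 and Rpl10 lie on the X chromosome. Rps27l is known as a p53 target gene.

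For the paralogs whose levels are described most closely, the coding sequences are printed beside those of their parent genes, since the count of a paralog depends on reads that can be told apart from the parent's. The sequences are those of GENCODE transcripts on GRCm38, read 5′ to 3′ on the strand of the gene, with the bases that differ within a pair in capitals. Positions span the coding part with its introns: chrX:37082701-37085127 (minus strand) for Rpl39, chr16:10174310-10174465 (plus strand) for Rpl39l, chr3:90212725-90213615 (minus strand) for Rps27 and chr9:66946175-66949357 (plus strand) for Rps27l.
Rpl39: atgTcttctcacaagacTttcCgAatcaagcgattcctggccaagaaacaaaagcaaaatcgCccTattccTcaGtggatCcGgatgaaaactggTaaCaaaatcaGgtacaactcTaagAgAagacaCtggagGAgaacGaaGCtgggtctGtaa
Rpl39l: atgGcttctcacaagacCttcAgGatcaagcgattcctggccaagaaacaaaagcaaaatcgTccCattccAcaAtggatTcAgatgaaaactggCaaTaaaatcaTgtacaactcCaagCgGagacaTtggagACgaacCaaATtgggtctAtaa
Rps27: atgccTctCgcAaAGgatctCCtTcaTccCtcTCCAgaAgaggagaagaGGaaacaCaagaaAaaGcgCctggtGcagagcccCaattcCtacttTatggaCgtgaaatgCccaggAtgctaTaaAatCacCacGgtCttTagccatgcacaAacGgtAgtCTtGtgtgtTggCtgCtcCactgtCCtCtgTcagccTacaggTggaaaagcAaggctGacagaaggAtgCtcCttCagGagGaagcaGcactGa
Rps27l: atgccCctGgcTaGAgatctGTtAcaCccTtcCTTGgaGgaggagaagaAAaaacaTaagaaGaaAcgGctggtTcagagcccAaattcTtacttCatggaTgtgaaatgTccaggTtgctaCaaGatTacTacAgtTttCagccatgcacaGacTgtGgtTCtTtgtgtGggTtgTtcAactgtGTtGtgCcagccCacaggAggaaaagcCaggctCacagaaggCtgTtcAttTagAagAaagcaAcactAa
Rpl39 and Rpl39l had coding sequences of 156 bases that differed at 23, an identity of 85.3%. Rps27 and Rps27l had 255 bases each and differed at 61, an identity of 76.1%. Of the other pairs, Rpl36al and Rpl36a were 87.9% identical, Rpl10l and Rpl10 84.8%, Rpl3l and Rpl3 73.3%, Rpl22l1 and Rpl22 67.5%, and Rpl7l1 and Rpl7 54.5%. The coding sequence of Rps27rt, a gene with 1 exon, was 100% identical to that of Rps27, so that the counts of this pair are uncertain. Reads shared with the many near-identical pseudogene copies of ribosomal protein genes may likewise be lost or split.

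The control library held 120568700 UMIs (unique molecular identifiers, each standing for 1 captured RNA molecule) in 5812 barcodes, and the *Brca1* vKO library 165062097 UMIs in 9456 barcodes. Filters on genes and mitochondrial UMIs kept 5077 and 8712 cells, of which 16 barcodes occurred in both libraries. Of the retained cells, 563 control and 954 *Brca1* vKO cells lay in clusters that received no class name. Germ cells were the clusters expressing Ddx4 and Dazl, 2 germ cell genes. They were split at 10000 UMIs per cell into 700 control and 224 *Brca1* vKO cells, called deep germ cells here, and 361 and 49 shallow Ddx4/Dazl cells. Dazl and Ddx4 were among the 10 leading genes of the cluster that held most deep germ cells, whereas 4 haemoglobin genes were among the 10 leading genes of the smaller cluster and none of the 5 germ cell markers was, so that shallow Ddx4/Dazl cells are named by the rule and their marker levels, not by their leading genes. Haemoglobin genes had 0.162% of the UMIs of shallow Ddx4/Dazl cells in the control and 0.0242% in *Brca1* vKO. Summed germ cell marker levels were 2155 CPM (UMIs of a gene per 1000000 UMIs of the cells pooled) in deep germ cells and 2336 CPM in shallow Ddx4/Dazl cells of the control, against 21.5 CPM in its Sertoli-like cells. Brca1 itself, on chromosome 11, was at 71.4 CPM in control and 44.5 CPM in *Brca1* vKO deep germ cells. The allele lacks exons in the middle of the gene, so reads from its remaining 3′ part can still be counted and the residual level checks the label only in part. Each genotype had 1 library, so no test between genotypes was made, and all intervals given are exact 95% intervals that cover counting error only.

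Ribosomal protein genes made up 16.5% of all UMIs in deep germ cells of the control library and 15.96% in those of the *Brca1* vKO library. In shallow Ddx4/Dazl cells, the shares were 23.3% and 21.2%. In Sertoli-like cells, the somatic nurse cells of the tubule, they were 12.1% and 11.0%. Stromal-like cells had 20.3% and 19.9%, and myoid-like cells, the contractile cells around the tubule, 20.3% and 20.1%. The order from Sertoli-like over deep germ to stromal-like cells was thus the same in both libraries for pooled cells. These classes were not matched for UMIs per cell, with control medians of 18626, 45403 and 15603 in that order. The barcodes that the filters left out had 5.62% and 6.11%, below every class named.

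**Figure D1:**
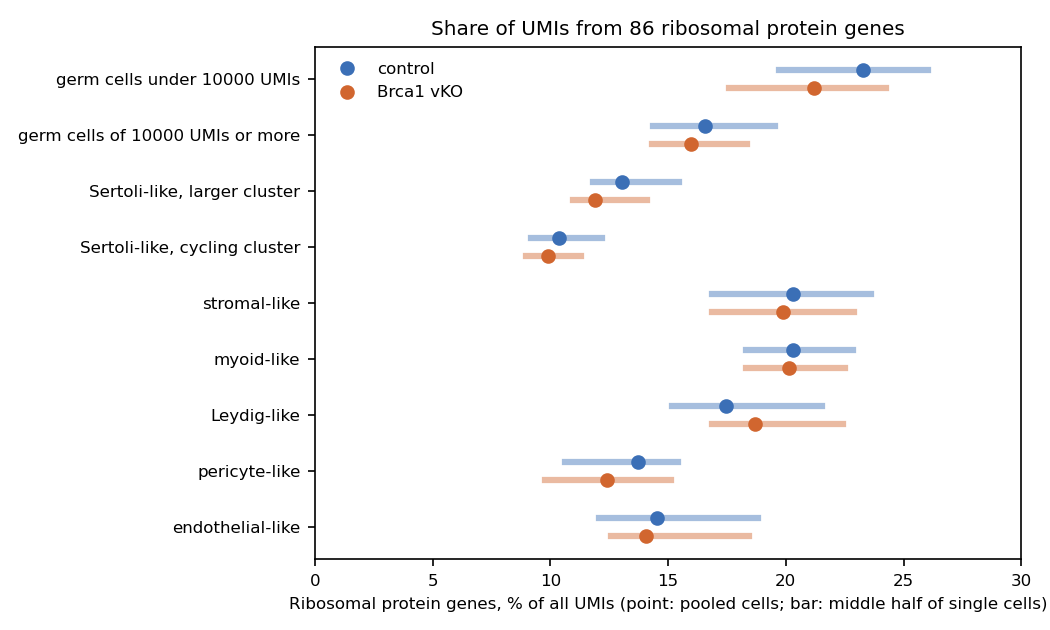
Share of all UMIs that came from the 86 ribosomal protein genes, in percent (x axis), by cell class (y axis) in the control and *Brca1* vKO libraries. Points are pooled cells and bars run from the lower to the upper quartile of single cells; the 2 libraries lie close together in each class, and the classes lie between 9.90% in cycling Sertoli-like cells of *Brca1* vKO and 23.3% in shallow Ddx4/Dazl cells of the control.

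The spread between single cells was wide compared with the gap between genotypes. Among deep germ cells, the quartiles of the share were 14.4% and 19.6% in the control and 14.3% and 18.4% in *Brca1* vKO. The medians over single cells were 16.9% and 16.1%. The smaller somatic classes did not all go the same way: Leydig-like cells, the androgen-producing cells between tubules, had 17.5% in 46 control cells and 18.7% in 115 *Brca1* vKO cells, whereas pericyte-like cells had 13.7% in 47 and 12.4% in 69 cells. Endothelial-like cells had 14.5% in 27 and 14.1% in 36 cells.

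As a ratio of *Brca1* vKO over control, the share of UMIs was 0.964 (interval 0.963 to 0.966) in deep germ cells. It was 0.910 (0.901 to 0.920) in shallow Ddx4/Dazl cells, 0.914 (0.913 to 0.915) in Sertoli-like cells, 0.979 (0.977 to 0.980) in stromal-like cells and 0.991 (0.989 to 0.993) in myoid-like cells. The ratio in deep germ cells thus lay between those of Sertoli-like and stromal-like cells, both of them outside the germ line. The shallow cells also differed in mitochondrial UMIs, with medians of 0.850% in the control and 1.82% in *Brca1* vKO. With mitochondrial and haemoglobin UMIs left out of the total, the ratio in shallow cells was 0.915, and with a mitochondrial limit of 5% it was 0.950. In deep germ cells, the medians were 5.57% and 5.84%, and 8.57% and 11.2% of cells were called doublets. With a mitochondrial limit of 5%, which left 238 control and 56 *Brca1* vKO deep germ cells, the ratio in deep germ cells was 0.916, below the 0.945 of Sertoli-like and the 0.977 of stromal-like cells, so that this order depended on the limit.

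The Sertoli-like cells consisted of 2 clusters. In the larger cluster, ribosomal protein genes had 13.0% of UMIs in the control and 11.9% in *Brca1* vKO. In the cluster led by cell cycle genes, they had 10.4% and 9.90%. The larger cluster was thus 1.26-fold above the cycling cluster in the control and 1.20-fold above it in *Brca1* vKO. The clusters were not matched for UMIs per cell. Medians in the larger and the cycling cluster were 17502.5 and 27100 in the control, and 13826 and 24842 in *Brca1* vKO. The part of depth in this gap was not tested.

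The share depended on how many UMIs a cell had. In control germ cells it was 23.9% at 5000 to 10000 UMIs, 18.0% at 30000 to 40000 UMIs and 15.3% at 60000 UMIs or more. In *Brca1* vKO germ cells, it was 22.2%, 17.0% and 13.5% in the same ranges. Sertoli-like cells showed the same order over a narrower range, from 13.9% at 10000 to 20000 UMIs to 10.4% at 60000 UMIs or more in the control, and from 12.5% to 9.72% in *Brca1* vKO. This order did not extend to the lowest ranges. Under 2500 UMIs, germ cells had 21.9% in the control and 18.6% in *Brca1* vKO. Sertoli-like cells had 12.2% and 7.05% there, from 21 and 4 cells. A cluster of few UMIs per cell whose best-scoring class was Sertoli stayed unnamed for its depth. The lowest ranges of Sertoli-like cells are therefore incomplete, whereas germ clusters had no such limit. Deep germ cells had a median of 45403 UMIs in the control and 37096 in *Brca1* vKO. When the ranges of UMIs per cell were weighted as in the control, an alternative chosen after seeing the data, the ratio in deep germ cells was 0.917 in place of 0.964. In 7 of the 8 ranges the *Brca1* vKO germ cells had the smaller share, the exception being 20000 to 30000 UMIs with 17.2% in the control and 17.8% in *Brca1* vKO.

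**Figure D2:**
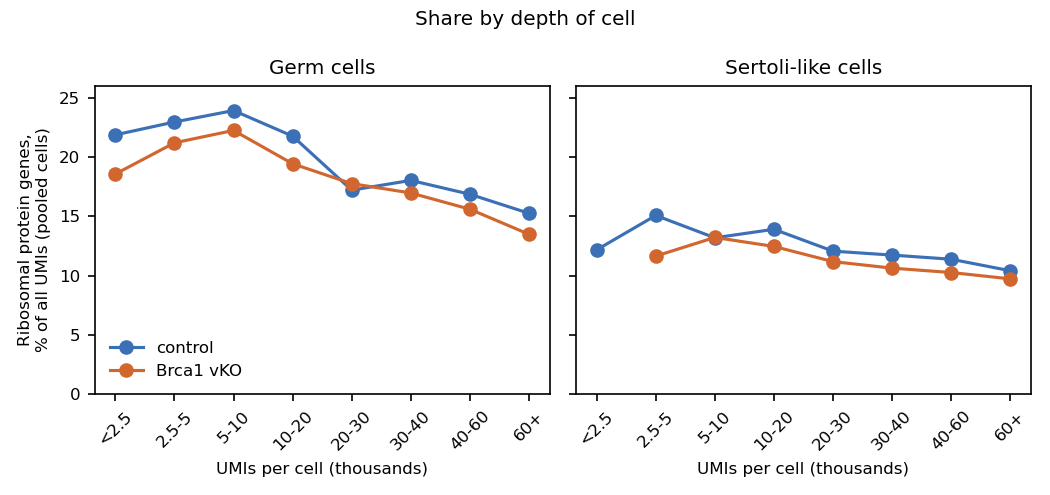
Share of UMIs from ribosomal protein genes (y axis, percent of pooled UMIs) by UMIs per cell (x axis, ranges in kilo-UMIs) in germ cells (left) and Sertoli-like cells (right); ranges with fewer than 5 cells are left out. In germ cells, the share was at most 23.9% in the control and 22.2% in *Brca1* vKO, both at 5000 to 10000 UMIs, and 15.3% and 13.5% at 60000 UMIs or more.

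Within the control library, deep germ cells had a 1.37-fold larger share of ribosomal protein UMIs than Sertoli-like cells (1.368 to 1.371). Within the *Brca1* vKO library, the share was 1.44-fold larger (1.442 to 1.447). Against stromal-like cells, deep germ cells had 0.814 of the share in the control and 0.802 in *Brca1* vKO. None of these class ratios was matched for UMIs per cell. At 10000 to 20000 UMIs, germ cells had 21.8% in the control (61 cells) and 19.4% in *Brca1* vKO (17 cells). Sertoli-like cells had 13.9% and 12.5% in this range. Stromal-like cells were not split by depth, so that their order against germ cells at like depth was not tested. Gene by gene, the comparison of deep germ with Sertoli-like cells in the control placed 11 of 86 members at least 2-fold higher in germ cells, where 11.6% of all 16217 genes were called, and 2 members at least 2-fold lower, where 10.5% of all genes were called. The median log2 ratio over the members was 0.45, and 0.12 over all genes. Log2 ratios here and below are of CPM plus a pseudocount of 10, for genes with at least 50 UMIs in the pair of sums. In *Brca1* vKO, 13 of 85 members were at least 2-fold higher, against 12% of all genes, and 2 were lower, against 11.3%. Rpl3l had too few UMIs there.

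Among the proteins of the small subunit, Rps2 (log2 ratio 1.45 in the control and 1.51 in *Brca1* vKO) and the laminin receptor gene Rpsa (1.41 and 1.56) were higher in deep germ cells than in Sertoli-like cells. Of the large subunit, Rpl4 (1.33 and 1.45), Rpl14 (1.10 and 1.13) and Rpl12 (1.08 and 1.34) were. The stalk proteins, which recruit translation factors to the ribosome, had log2 ratios of 1.17 (Rplp1), 1.07 (Rplp2) and 0.84 (Rplp0) in the control, and 1.28, 1.04 and 0.78 in *Brca1* vKO. At the other end, Rps29 (-0.51 and -0.52), Rpl11 (-0.47 and -0.18), Rps19 (-0.27 and -0.20) and Rps27 (-0.25 and -0.16) were lower in germ cells, short of 2-fold. Rpl11 and Rpl5 bind MDM2 when ribosome assembly is disturbed, and Rps19 is mutated in Diamond-Blackfan anaemia.

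The 2 members that were at least 2-fold lower in germ cells lie on the X chromosome. Rps4x was at 381 CPM in control and 381 CPM in *Brca1* vKO deep germ cells, against 1566 and 1515 CPM in Sertoli-like cells and 3967 and 4146 CPM in stromal-like cells. Rpl39, which encodes a short protein at the exit tunnel, was at 387 and 600 CPM in deep germ cells, 1243 and 1234 CPM in Sertoli-like cells and 2948 and 2992 CPM in stromal-like cells. Both genes were lower in germ cells than in each of these somatic classes, and the genotypes differed for Rpl39 in germ cells but hardly for Rps4x. Rpl10 followed with 308 and 314 CPM in deep germ cells against 593 and 544 CPM in Sertoli-like cells, a log2 ratio of -0.92 in the control. The remaining X-linked member, Rpl36a, had 736 and 795 CPM in deep germ cells and 650 and 604 CPM in Sertoli-like cells.

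**Figure D3:**
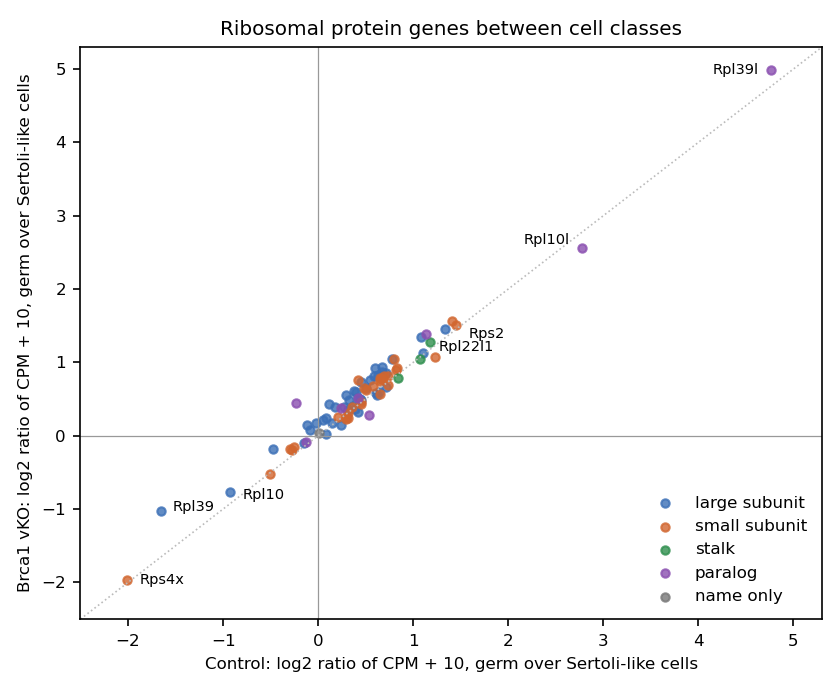
Log2 ratio of deep germ over Sertoli-like cells (CPM plus 10) for each of the 86 members in the control (x axis) and *Brca1* vKO (y axis) libraries, coloured by role, with the dotted line marking equal ratios. Rpl39l and Rpl10l lie highest, the X-linked Rps4x, Rpl39 and Rpl10 lowest, and Rpl39 lies above the line with -1.66 in the control and -1.03 in *Brca1* vKO.

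The 8 paralogs differed widely in where they were found. Rpl39l was at 356 CPM in control and 336 CPM in *Brca1* vKO deep germ cells, and at 3.49 and 0.932 CPM in Sertoli-like cells. Rpl10l was at 61.7 and 49.9 CPM in deep germ cells, and at 0.467 and 0.140 CPM in Sertoli-like cells. Both were thus near 0 in Sertoli-like cells, with log2 ratios of 4.76 and 2.78 in the control. After cells with at least 10000 UMIs were thinned to that number, which left out 118 control and 358 *Brca1* vKO Sertoli-like cells, Rpl39l was detected in 95.1% of control and 95.5% of *Brca1* vKO deep germ cells, and in 3.36% and 1.13% of Sertoli-like cells; unthinned and over all Sertoli-like cells, the shares were 7.72% and 2.28%, with medians of 18626 and 15627 UMIs. The lower level of Rpl39l in *Brca1* vKO somatic cells went along with a lower summed level of germ cell markers in Sertoli-like cells, 21.5 CPM in the control and 10.6 CPM in *Brca1* vKO, and the part of this difference in it was not tested. Rpl3l, known from striated muscle, was at 4.87 and 2.23 CPM in deep germ cells from 162 and 20 UMIs.

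As a share of the UMIs of the pair, Rpl39l had 47.9% of Rpl39l and Rpl39 together in control deep germ cells (47.3% to 48.5%) and 35.9% in *Brca1* vKO (34.9% to 36.9%). Over all deep germ cells its own level was similar, and that of Rpl39 was higher in *Brca1* vKO. Within deep germ cells with more Gfra1 than Kit UMIs, described below, the share of Rpl39l was 44.6% in the control and 35.4% in *Brca1* vKO. There Rpl39l was lower and Rpl39 higher in *Brca1* vKO. In shallow Ddx4/Dazl cells, which the split by depth keeps apart, the shares were 48.1% and 35.5%. In Sertoli-like cells, they were 0.280% and 0.0755%. Rpl10l had 16.7% and 13.7% of its pair with Rpl10 in deep germ cells.

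The other paralogs were expressed in all classes. Rpl36al had 40.2% and 40.1% of its pair with Rpl36a in deep germ cells, 39.2% and 40.2% in Sertoli-like cells, and 18.8% and 17.9% in stromal-like cells. Rps27l had 29.3% and 38.4% of its pair with Rps27 in deep germ cells, 29.1% and 28.9% in Sertoli-like cells, and 13.5% and 13.1% in stromal-like cells. Rpl7l1, a factor of ribosome assembly despite its name, had 7.11% and 5.89% of its pair with Rpl7 in deep germ cells and 4.81% and 4.43% in Sertoli-like cells. Rps27rt was at 22.9 and 16.3 CPM in deep germ cells and had a log2 genotype ratio of -0.36 in both Sertoli-like and stromal-like cells. Rps19bp1, the member by name only, was at 45.1 and 45.7 CPM in deep germ cells.

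**Figure D4:**
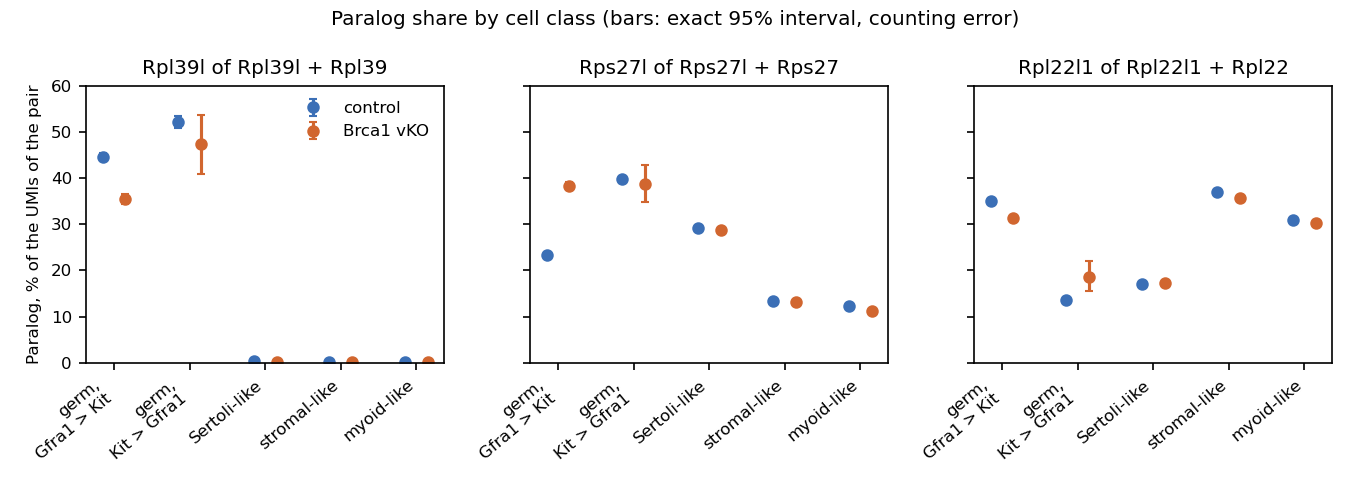
Share of a paralog in the UMIs of the pair with its parent gene (y axis, percent) by cell class (x axis) for Rpl39l, Rps27l and Rpl22l1 in the control and *Brca1* vKO libraries, with exact 95% intervals for counting error. Germ cells are deep germ cells with more Gfra1 than Kit UMIs or the reverse; in the former the Rps27l share was 23.3% in the control and 38.3% in *Brca1* vKO, and in Sertoli-like cells 29.1% and 28.9%.

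Between genotypes, few members stood apart in deep germ cells. All 86 passed the limit of 50 UMIs. A gene was called higher where CPM plus 10 was at least 25% larger in *Brca1* vKO than in the control, and called lower where it was at least 25% larger in the control. Rpl39 and Rps27l were the 2 members called higher, as were 7.87% of all 14989 genes, and 2 members, Rpl26 among them, were called lower, as were 9.5% of all genes. Both counts are below the share over all genes. That share includes genes with as few as 50 UMIs and was not matched to the level of the members. In the larger sums of Sertoli-like cells it was 0.952% and 0.771%. Whether the members differ from other genes of like level was not tested. The ratio was above 1 for 37 members and below 1 for 49, beside 6600 and 8389 of all 14989 genes. The median log2 ratio was -0.03 for members and -0.03 for all genes. Of the large subunit, 25 of 43 members had a ratio above 1 and the median was 0.01. Of the small subunit, 24 of 31 had a ratio below 1 and the median was -0.08. The stalk genes Rplp0, Rplp1 and Rplp2 had -0.22, -0.04 and -0.25. Next in order came Rpl7 (0.30), Rpl31 (0.23) and Rpl35 (0.23) at the upper end, and Rps27rt (-0.32), Rpl3l (-0.28) and Rps2 (-0.27) at the lower end. Rpl5 (0.15), Rpl11 (0.21), Rpsa (-0.08) and Rps19 (-0.09) lay between them.

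**Figure D5:**
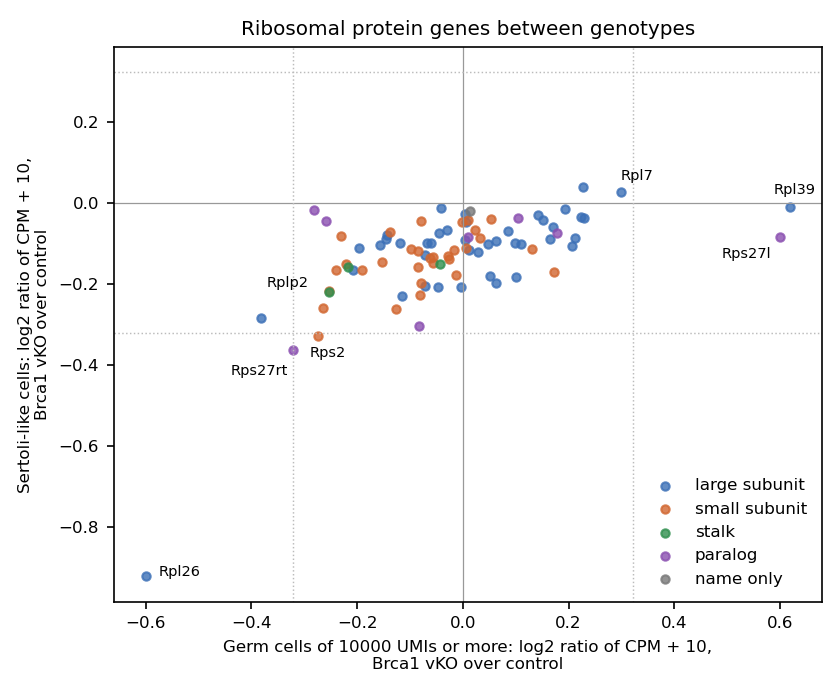
Log2 ratio of *Brca1* vKO over control (CPM plus 10) for each of the 86 members in deep germ cells (x axis) and Sertoli-like cells (y axis), coloured by role, with dotted lines at a difference of 25%. Rpl26 is low in both with -0.60 and -0.92, Rps27l and Rpl39 are high in deep germ cells with 0.60 and 0.62 and near 0 in Sertoli-like cells, and most other members lie below 0 in Sertoli-like cells.

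Rps27l had 381 CPM in control (12700 UMIs) and 583 CPM in *Brca1* vKO deep germ cells (5218 UMIs), a ratio of 1.53 (1.48 to 1.58). In Sertoli-like cells it had 450 and 424 CPM, and in stromal-like cells 263 and 256 CPM. The gene was thus higher in *Brca1* vKO germ cells, slightly lower in Sertoli-like cells and near the control level in stromal-like cells. Myoid-like and Leydig-like cells were also lower in *Brca1* vKO, but pericyte-like and endothelial-like cells were higher. Pericyte-like cells had 141 of 524496 UMIs in the control and 227 of 681780 in *Brca1* vKO. Endothelial-like cells had 209 of 883156 and 345 of 1254845. In shallow Ddx4/Dazl cells, with 726 and 119 UMIs, the ratio was 1.29 (1.05 to 1.56). The state of the shallow cells differed as well, with summed markers of differentiating spermatogonia at 973 CPM in the control and 330 CPM in *Brca1* vKO and of undifferentiated spermatogonia at 96.8 and 424 CPM, and the part of this difference in the results on shallow cells was not tested. Its parent Rps27 had 920 and 934 CPM in deep germ cells. Of the 12 regulators of TOP mRNAs and of ribosome stress, Cdkn1a and Mdm2, both p53 targets, were called higher in *Brca1* vKO deep germ cells, and Mycn was called lower, beside 7.87% and 9.5% of all genes; these genes are named because of their values. Cdkn1a had 11.6 and 141 CPM, and Mdm2 84.2 and 123 CPM. Within cells with more Gfra1 than Kit UMIs, described next, Cdkn1a (13.9 and 133 CPM) and Trp53 were called higher and Mdm2 (95.4 and 121 CPM) was not. Mdm2 was also called higher in such cells than in cells with more Kit than Gfra1 UMIs in the control.

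The 2 libraries held different mixtures of deep germ cells. Of the control cells, 333 had at least 2 Gfra1 UMIs and more Gfra1 than Kit, 188 had at least 2 Kit UMIs and more Kit than Gfra1, and 179 neither. The numbers in *Brca1* vKO were 198, 8 and 18. Gfra1 encodes a receptor of spermatogonial stem cells, and Kit marks differentiating spermatogonia. In control Gfra1-high cells, Rps27l had 281 CPM, and in control Kit-high cells 547 CPM. In *Brca1* vKO, these values were 567 and 664 CPM, the latter from 223 UMIs. Compared within Gfra1-high cells, the ratio of genotypes for Rps27l was 2.02 (1.94 to 2.10), against 1.53 in all deep germ cells. For Rpl39, with 478 and 601 CPM in Gfra1-high cells and 260 CPM in control Kit-high cells, it was 1.26 (1.21 to 1.30), against 1.55. Within Gfra1-high cells the ratio was thus farther from 1 for Rps27l and nearer to 1 for Rpl39 than over all deep germ cells.

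Within Gfra1-high cells, 2 members were called higher in *Brca1* vKO, Rps27l and Rpl39, as were 8.42% of all genes. Called lower were 3 members, Rpl26 and Rps27rt among them, as were 8.8% of all genes. Rpl22l1, whose protein replaces RPL22 in some ribosomes, had 499 and 565 CPM over all deep germ cells but 667 and 574 CPM in Gfra1-high cells, a ratio above 1 in the former and below 1 in the latter. Rpl39l had 385 and 330 CPM there. The share of ribosomal protein UMIs in Gfra1-high cells was 16.4% in the control and 15.7% in *Brca1* vKO, a ratio of 0.955 (0.953 to 0.957). In Kit-high cells, it was 15.1% and 15.2%, the latter from 8 cells, and in the remaining deep germ cells 19.0% and 20.9%, the latter from 18 cells. These remaining cells had median UMIs of 36733 in the control and 19026 in *Brca1* vKO. Their median mitochondrial shares were 5.46% and 3.27%, and the part of either difference was not tested.

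Members also differed between these germ cell states within the control library. In Gfra1-high over Kit-high cells, 19 of 86 members were at least 25% higher, where 14.6% of all genes were called, and 1 member, Rps27l, was lower, where 17.6% were called. Of the 19, 15 belonged to the large subunit. Rpl22l1 stood first with 667 and 224 CPM, a ratio of 2.98 (2.85 to 3.12), followed by Rpl39 with 1.84, Rpl10a with 1.48, Rpl3 with 1.47 and Rpl11 with 1.41. Rpl5 had 1.40. Rps27l was at 0.514 (0.494 to 0.535). Cells were sorted into these states by their own Gfra1 and Kit counts and not by a sort on protein. The states were not matched for UMIs per cell, with control medians of 45635 in Gfra1-high and 54004.5 in Kit-high cells. The part of depth in these differences was not tested.

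Rpl26, of the large subunit, was low in *Brca1* vKO also outside the germ line. Rpl26 (chr11:68901583-68906989, plus strand), whose protein is known to bind p53 mRNA, had 2378 and 1566 CPM in deep germ cells, a ratio of 0.659 (0.647 to 0.671). In Sertoli-like cells it had 1567 and 822 CPM, in stromal-like cells 2479 and 1339 CPM and in myoid-like cells 2491 and 1352 CPM. Rpl26 was thus lower in *Brca1* vKO in each of these classes, and the log2 ratio was nearer 0 in deep germ cells (-0.60) than in Sertoli-like (-0.92), stromal-like (-0.88) and myoid-like (-0.88) cells. Leydig-like (-0.89), pericyte-like (-0.95) and endothelial-like (-1.03) cells had similar values. With 1 mouse per genotype, a difference between mice cannot be told apart from one between genotypes.

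In Sertoli-like cells, 82 of the 84 members tested had a ratio below 1, beside 7852 of all 15438 genes. The median log2 ratio was -0.11 over the members and -0.0012 over all genes. No member was called higher, beside 0.952% of all genes, and Rpl26, Rps2 and Rps27rt were called lower, beside 0.771% of all genes. Rpl10l and Rpl3l had too few UMIs to be tested. In stromal-like cells, 51 of 84 members were below 1 with a median of -0.02, beside 6691 of all 13070 genes. No member was called higher there (1.34% of all genes) and Rpl26, Rpl39l and Rps27rt were lower (1.28%). In myoid-like cells, 45 of 84 members were below 1 with a median of -0.01, beside 6520 of all 12238 genes. No member was higher there (2.68%) and the same 3 genes were lower (1.58%). In shallow Ddx4/Dazl cells, 2 of 85 members were higher, Rps27l and Rpl39 (22%), and 10 were lower (26.8%). The ratio was below 1 for 63 of the 85 members and 29 of the 31 of the small subunit, beside 2378 of all 4467 genes.

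Other genes of the pathway were read from lists by function. Of 38 ribosome biogenesis genes, 24 were at least 2-fold higher in deep germ than in Sertoli-like cells of the control and 19 in *Brca1* vKO, with median log2 ratios of 1.11 and 1.003, and none was 2-fold lower in either. Over all genes, 11.6% and 12% were called higher in this comparison. Examples are Ncl, the gene of the nucleolar protein nucleolin (1904 and 636 CPM in germ and Sertoli-like cells of the control), Taf1d, of an RNA polymerase I factor (380 and 124 CPM), and Fbl, of the rRNA methylase fibrillarin (311 and 117 CPM). Between genotypes in deep germ cells, 1 of these 38 genes was called higher and 7 were called lower, with a median of -0.08, beside 7.87% and 9.5% of all genes. Within Gfra1-high cells, none was called higher and 4 were called lower, with a median of -0.04, beside 8.42% and 8.8% of all genes. Ncl had 1555 CPM in *Brca1* vKO, Taf1d 244 CPM and Fbl 272 CPM.

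Of 14 translation genes with TOP mRNAs, 3 were at least 2-fold higher in germ than in Sertoli-like cells of the control (Pabpc1, Npm1 and Nap1l1) and Tpt1 was lower, beside 11.6% and 10.5% of all genes, and none was called between genotypes in deep germ cells. Eef1a1, the main elongation factor, had 4671 and 4477 CPM in control and *Brca1* vKO deep germ cells. Of 78 mitochondrial ribosomal protein genes, 12 were at least 2-fold higher and 1 lower in germ than in Sertoli-like cells of the control, beside the same 11.6% and 10.5% of all genes. Between genotypes, 1 was called higher and 4 lower in deep germ cells, beside 7.87% and 9.5% of all genes, whereas 5 were called higher and 1 lower in Gfra1-high cells, beside 8.42% and 8.8%. Their median log2 genotype ratio was -0.02 in deep germ cells and 0.02 in Gfra1-high cells, beside -0.03 and -0.05 for the cytoplasmic members. Among genes for proteins of the ribosome outside the symbol rule, Fau had 2240 and 1993 CPM and Rack1 1075 and 1083 CPM in deep germ cells.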

How the data were processed

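PD7 testes of 1 control and 1 *Brca1* vKO mouse were analyzed by droplet scRNA-seq, 1 library each. The deposited values were raw counts of UMIs per gene and barcode, which the authors had made with Cell Ranger 6.0.2 on the mm10 genome; the submitters' processing notes also name R 4.2.3 and Seurat 4.3.0.1. Strand and shared-read settings are not given in the sources used here. The study's limits were applied to barcodes: 750 genes as the minimum, 10% of UMIs from mitochondrial genes as the maximum. The 2 libraries were merged and log-normalized. The 2000 most variable genes, without the ribosomal protein genes, gave 20 components, on which differences between libraries were removed by a version of the Harmony method written for this work (theta 2, lambda 1, sigma 0.1, 10 rounds); the cells were clustered at a resolution of 0.25 with 20 neighbours (scanpy 1.11.5, igraph 0.11.9, scikit-learn 1.9.0, numpy 2.4.6, scipy 1.17.1, Python 3.11.15). Clusters were named by marker genes. A somatic cluster with at least 25% doublets (called with Scrublet in scanpy) stayed unnamed, a limit set with the data in view. So did one with more leading genes of another class, or with no leading marker and low median UMIs for its library. The latter left out a cluster whose best-scoring class was Sertoli (169 control and 210 *Brca1* vKO cells, medians of 3304 and 2219 UMIs). Germ clusters were exempt from these limits. Doublets, 2.95% and 3.03% of cells, were removed in an alternative only.

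UMIs were summed per library and class. Shares carry exact Clopper-Pearson intervals, and ratios exact conditional intervals. All intervals cover counting error only. With 1 library per genotype there was no test. A gene was called past a difference of 25% between genotypes or germ cell states and past 2-fold between classes, on CPM plus 10. The steps were tested on simulated data. The genes named are the paralogs and their parents, the stalk genes, Rpsa, Rpl5, Rpl11, Rps19, X-linked members, Rps19bp1, the 5 members at each end of the germ genotype and germ over Sertoli-like ratios and at most 3 genes per pathway list; others were named after their values were seen, and some genes that the rule picks are not reported here. The members and lists were chosen with earlier results of these data known. Coding sequences came from GENCODE transcripts on GRCm38, the assembly of mm10. The closing section gives the effect of the alternatives tried.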

Additional observations from a re-analysis of the deposited data

Results flagged for a closer look

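Rps27l and Rpl39 had ratios of *Brca1* vKO over control above 1 in deep germ cells and below 1 in Sertoli-like cells. For Rps27l, the ratio was 1.53 in deep germ cells and 0.941 in Sertoli-like cells. For Rpl39, it was 1.55 in deep germ cells and 0.993 in Sertoli-like cells, where its counting interval (0.983 to 1.002) includes 1, so that no opposite direction is shown for this gene. With 1 library per genotype, these differences between classes were not tested.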

How the results depend on the processing

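No share ratio changed direction under any alternative. Those that moved beyond their counting interval were the following. With a mitochondrial limit of 5%, the genotype ratio was 0.916 in deep germ cells, 0.950 in shallow Ddx4/Dazl cells, 0.945 in Sertoli-like cells and 0.977 in stromal-like cells and germ over Sertoli-like was 1.47 (control) and 1.43 (Brca1 vKO). Without doublets, the genotype ratio was 0.940 in shallow Ddx4/Dazl cells and germ over Sertoli-like was 1.38 (control) and 1.45 (Brca1 vKO). Without batch correction, the genotype ratio was 0.919 in Sertoli-like cells and 0.985 in stromal-like cells and germ over Sertoli-like was 1.37 (control). As means over cells, the genotype ratio was 0.898 in shallow Ddx4/Dazl cells and 0.922 in Sertoli-like cells and germ over Sertoli-like was 1.33 (control) and 1.40 (Brca1 vKO). Without mitochondrial and haemoglobin UMIs in the total, the genotype ratio was 0.967 in deep germ cells, 0.911 in Sertoli-like cells and 0.977 in stromal-like cells and germ over Sertoli-like was 1.38 (control) and 1.46 (Brca1 vKO). Without paralogs and Rps19bp1, the genotype ratio was 0.962 in deep germ cells and germ over Sertoli-like was 1.37 (control) and 1.44 (Brca1 vKO). With germ cells gated on Ddx4 plus Dazl (2 UMIs or more), the genotype ratio was 0.948 in deep germ cells and germ over Sertoli-like was 1.34 (control) and 1.39 (Brca1 vKO). With the split at 5000 UMIs, the genotype ratio was 0.959 in deep germ cells and germ over Sertoli-like was 1.38 (control) and 1.45 (Brca1 vKO). With the split at 20000 UMIs, the genotype ratio was 0.967 in deep germ cells and 0.888 in shallow Ddx4/Dazl cells and germ over Sertoli-like was 1.36 (control) and 1.44 (Brca1 vKO). In Gfra1-high cells, the genotype ratio was 0.955 in deep germ cells. Without Rpl26 (chosen after seeing the data), the genotype ratio was 0.969 in deep germ cells, 0.919 in Sertoli-like cells and 0.984 in stromal-like cells and germ over Sertoli-like was 1.37 (control) and 1.44 (Brca1 vKO). At matched UMIs per cell (chosen after seeing the data), the genotype ratio was 0.917 in deep germ cells, 0.913 in Sertoli-like cells and 0.967 in stromal-like cells. The count of members called lower was 4 with a pseudocount of 1 CPM, 1 at 1.5-fold and 5 with the mitochondrial limit of 5%, in place of 2; the cause was not tested. Rps27l, Rpl39 and Rpl26 had log2 ratios of 0.37 to 0.99, 0.33 to 0.67 and -0.70 to -0.58 over 7 alternatives, with no change of direction. Not all of these could have changed it. Dropping the filter on low counts leaves the ratio of a gene as it is. The other size factor and the pseudocount of 1 CPM hardly move genes at this level. Only the alternatives that changed the cells bear on the direction. No paired analysis was possible because each genotype had 1 library. Depth limits the values of shallow Ddx4/Dazl cells, with 49 cells and 181795 UMIs in *Brca1* vKO.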

Other observations

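The share of haemoglobin UMIs differed between libraries, with 0.0611% in control and 0.00402% in *Brca1* vKO deep germ cells, and 23.7% and 16.1% among the barcodes that the filters left out.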
